A study of Mus musculus with 12 samples.

Results

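The 41585 and 41584 libraries are 4 of the 12 mRNA libraries of this series, 2 from each line, and were taken by their labels. Both are Dicer-complemented lines of E14 mouse embryonic stem cells on the 129/Ola background. The labels say that 41585 processes neither miRNAs nor siRNAs and that 41584 resembles WT. The remaining groups, also of 2 libraries each, are WT, a Dicer knockout (KO), and the lines SOM, not described further, and 41589, which is labelled as lacking siRNA processing. All groups were kept in 15% serum, 100 U/mL LIF and 1 µg/mL puromycin on gelatin. What the line names stand for, which part of Dicer1 was deleted and which sequence was put back are not stated in the labels. They also do not say whether a line is 1 clone, or whether its libraries came from separate cultures, so p-values measure the spread between these libraries only.

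Dicer is the ribonuclease that cuts hairpin precursors into miRNAs and long double-stranded RNA into siRNAs. Both are loaded onto Argonaute proteins. A miRNA pairs through its seed with sites in the 3' UTR of messenger RNAs and lowers their stability and translation. Mouse embryonic stem cells are known for the miR-290 and miR-302 clusters. Several of their members share a seed and act on cell cycle and differentiation genes. Others, such as miR-290a-3p and miR-293-3p, carry another seed. Mature let-7 is held low by the RNA-binding protein Lin28a.

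The mature miRNAs below are shown because their seeds define the target sites examined further on. They are RefSeq sequences of build GRCm38.p6, 5′ to 3′, with the seed (bases 2 to 8) in capitals.
miR-291a-3p: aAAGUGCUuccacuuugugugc
miR-294-3p: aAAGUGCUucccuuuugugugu
miR-295-3p: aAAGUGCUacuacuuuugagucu
miR-302b-3p: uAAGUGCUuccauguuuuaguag
miR-302d-3p: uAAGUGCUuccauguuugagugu
miR-17-5p: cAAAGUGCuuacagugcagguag
let-7a-5p: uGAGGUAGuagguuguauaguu

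The first 5 share the seed AAGUGCU, which pairs with AGCACTT in a transcript. The seed of miR-17-5p is the same string moved by 1 base, so its site GCACTTT overlaps that of the miR-290 and miR-302 family. The let-7a-5p seed pairs with CTACCTC. Levels of the miRNAs themselves were not measured by these libraries.

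The 41584 libraries held 7264826 and 7127320 counted reads and the 41585 libraries 8278262 and 7749302, within a range of 5348401 to 10428509 over the series. On log2 CPM (counts per 1e+06 reads of the TMM-scaled total) the 41585 libraries correlated at 0.973 and the 41584 libraries at 0.935. Replicate 2 of 41584 stood apart from replicate 1: it correlated most with SOM replicate 2 (0.978), and replicate 1 with WT replicate 2 (0.98). Meg3, a maternally expressed long noncoding RNA, was at 1.53 CPM in 41584 replicate 1 and 187 CPM in replicate 2. Genes of chromosome 15 were higher in replicate 1 than in replicate 2 of both lines, by a median of 0.67 (41584) and 0.58 (41585) on the log2 scale over 533 genes. Their summed level was 53420 and 41522 CPM in 41584 and 56040 and 39622 CPM in 41585.

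All 8 embryonic stem cell markers were above 1 CPM in all 4 libraries. Nanog, a core pluripotency factor, stood at 757 and 626 CPM in 41584 and at 558 and 577 CPM in 41585. Fibroblast markers summed to 41.2 and 8.71 CPM in 41584 and 18.3 and 9.78 CPM in 41585, with 4 to 7 of 10 at 0.

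Dicer1 (ENSMUSG00000041415, chr12:104687742-104751952, minus strand, GRCm38) was at 42.3 and 55 CPM in 41584 and at 29.1 and 39.2 CPM in 41585. The ranges of the lines did not overlap, but the log2 difference of −0.51 ± 0.34 (SE) did not pass the test (edgeR adjusted p = 0.318). WT libraries had 197 and 214 CPM and KO libraries 28.5 and 44 CPM, so both complemented lines lay near the KO. These are counts over the whole gene, and the deleted part is not given, so they do not check the labels.

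In 41585 against 41584, 1861 of 14629 tested genes passed an adjusted p of 0.05, or 12.7%. Of these, 1119 were higher in 41585 (7.65% of the genes tested) and 742 lower (5.07%). A change of at least 4-fold (log2 of 2) was seen in 514 of the higher and 229 of the lower genes. The libraries of the lines did not overlap for all but 1 of the 1119 higher and all but 1 of the 742 lower genes. Over all tested genes both 41585 libraries lay above both 41584 libraries in 32.2% and below in 26.7%.

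Which genes were called depended on the libraries of both lines, and the number of calls most on the 41585 libraries. It was 359 without 41585 replicate 1 and 583 without replicate 2, 1445 without 41584 replicate 2, 472 with only these 4 libraries in the fit and 3073 with no filter on low counts. A set of 260 genes, 218 higher and 42 lower, was called whichever of the 4 libraries was left out. These are described below as called in every leave-one-out fit. The share of calls that were higher was 60.1%, but 49.7% under upper-quartile scaling, 49.4% with the trend on GC content and length removed, 49.8% without 41584 replicate 2, 79% with only the 4 libraries, and 81.9% or 79.1% without 41585 replicate 1 or 2.

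**Figure D1:**
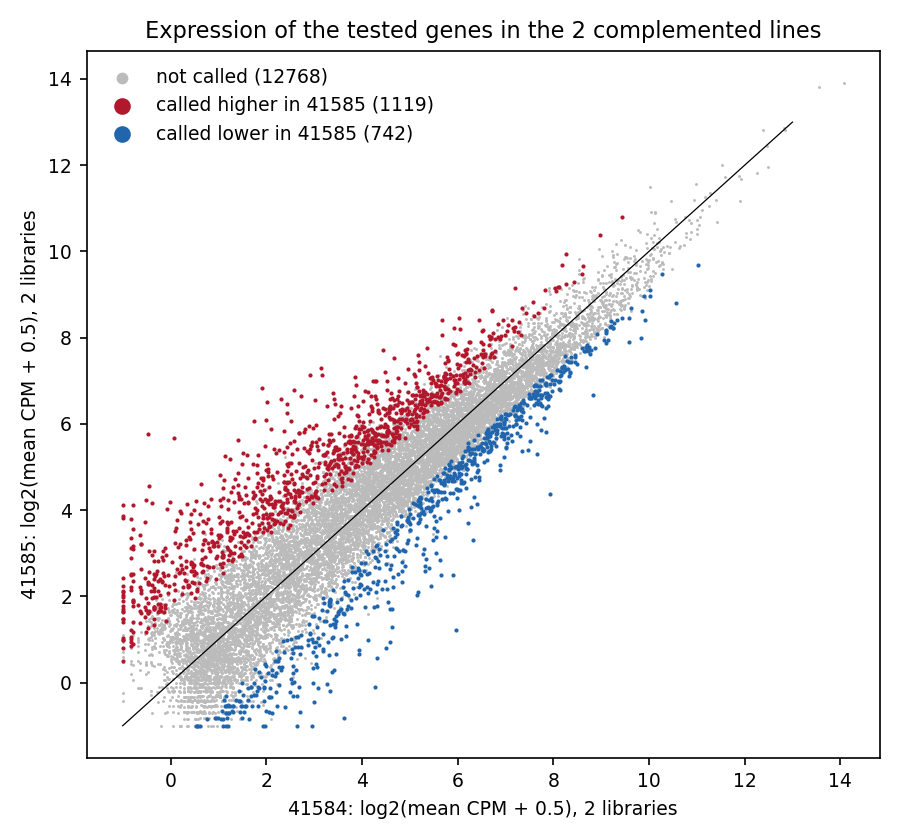
Each point is 1 of the 14629 tested genes, with the log2 of the mean CPM plus 0.5 over the 2 libraries of 41584 (x axis) and of 41585 (y axis). The 1119 genes called higher in 41585 lie above the diagonal and the 742 called lower lie below it.

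The largest increases were in genes near or at 0 in 41584. Oasl2 (chr5:114896936-114912234), an interferon-induced relative of the oligoadenylate synthetases, had no read in either 41584 library and 24.1 and 9.39 CPM in 41585, at least 81.2-fold higher against 3 counts over the group. Gbp2b and Gbp2, interferon-induced guanylate-binding proteins, are neighbours on chr3. Gbp2b rose from no read to 14.5 and 13.5 CPM, at least 66.7-fold. Gbp2 went from 0.128 and 0 to 12.8 and 13.8 CPM, a ratio of 189 with a 95% counting interval of 33.5 to 7486. Both belong to a family of similar sequences, so reads may be split between them. Psmb8, a subunit of the immunoproteasome, had 0.128 and 0 CPM in 41584 and 8.66 and 5.27 CPM in 41585. All 4 genes were higher in both 41585 libraries and were called in every leave-one-out fit.

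The other leading increases were of mixed function. Ren1, which encodes renin, had no read in 41584 and 14.5 and 12.6 CPM in 41585, at least 64.6-fold higher. Aox3, an aldehyde oxidase, stood at 0 and 0.155 CPM against 12.1 and 21.7 CPM, a ratio of 238 (95% counting interval 42.3 to 9418). C1qtnf9, a secreted protein of the C1q and TNF family, stood at 0 and 0.466 CPM against 20.5 and 25.6 CPM. Pglyrp1 encodes a peptidoglycan recognition protein, Aldh3b2 an aldehyde dehydrogenase and Rassf9 a protein with a Ras association domain. Their ratios were 122, 121 and 114, in that order, from 1 read each in 41584. Irf2, an interferon regulatory factor, is described with the miRNA targets. All 12 leading increases were called in every leave-one-out fit, and all 12 were also called higher in KO against WT.

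**Figure D2:**
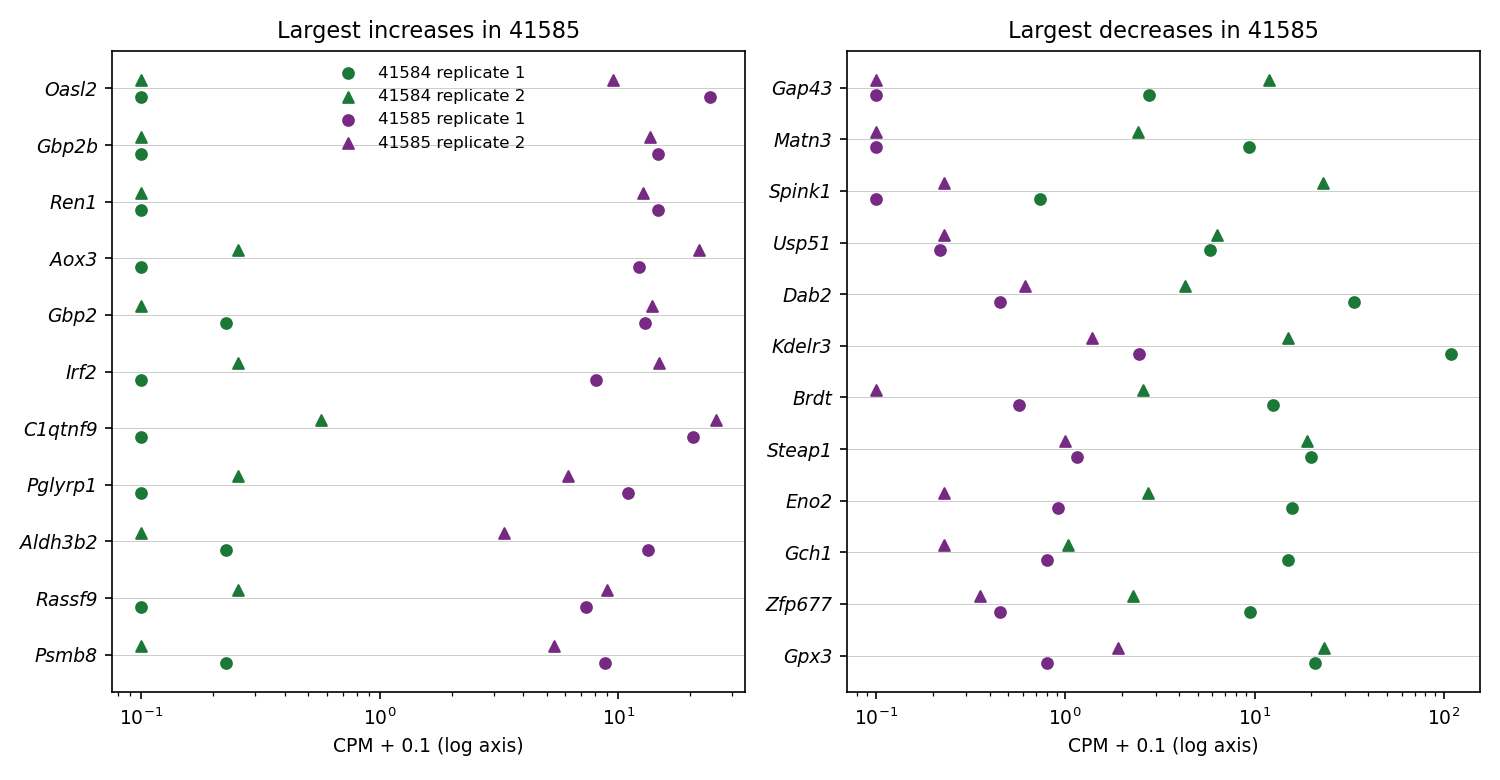
CPM plus 0.1 on a log axis in each of the 4 libraries for 11 of the 12 called genes with the largest increase (left) and all 12 with the largest decrease (right) in 41585, chosen for that fold. In Kdelr3 the 41584 libraries lie at 109 and 14.9 CPM, both above the 41585 libraries at 2.34 and 1.29 CPM.

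Among the largest decreases, Gap43, a growth cone protein, had 2.68 and 11.8 CPM in 41584 and no read in 41585, at least 37-fold lower. Matn3, a cartilage matrix protein, had 9.2 and 2.33 CPM in 41584 and no read in 41585, at least 33.2-fold lower. Steap1, a metalloreductase of the cell membrane, fell from 19.9 and 18.8 to 1.05 and 0.9 CPM (log2 −4.28 ± 0.57, adjusted p = 0.00128). Gpx3, a secreted glutathione peroxidase, fell from 20.8 and 23.3 to 0.702 and 1.8 CPM (−4.14 ± 0.48, adjusted p = 0.000603). Usp51, a ubiquitin-specific protease, was at 5.75 and 6.22 CPM against 0.117 and 0.129 CPM. Within each of the last 3 genes the libraries of a line lay close together.

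The 41584 libraries lay far apart in several other decreases. Kdelr3, a receptor for proteins retained in the endoplasmic reticulum, lies on chromosome 15 and had 109 and 14.9 CPM in 41584. It was still called in every leave-one-out fit (−5.08 ± 0.87, adjusted p = 0.00562). Spink1, a trypsin inhibitor, had 0.639 and 22.9 CPM in 41584, and Gch1, the first enzyme of tetrahydrobiopterin synthesis, 15 and 0.933 CPM. Spink1 was not called without 41584 replicate 2 (adjusted p = 0.308), nor Gch1 without replicate 1 (0.511). Brdt, a testis bromodomain protein, Eno2, the neuronal enolase, Zfp677, a zinc finger gene, and Dab2, an endocytic adaptor on chromosome 15, also lost the call in at least 1 such fit.

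**Figure D3:**
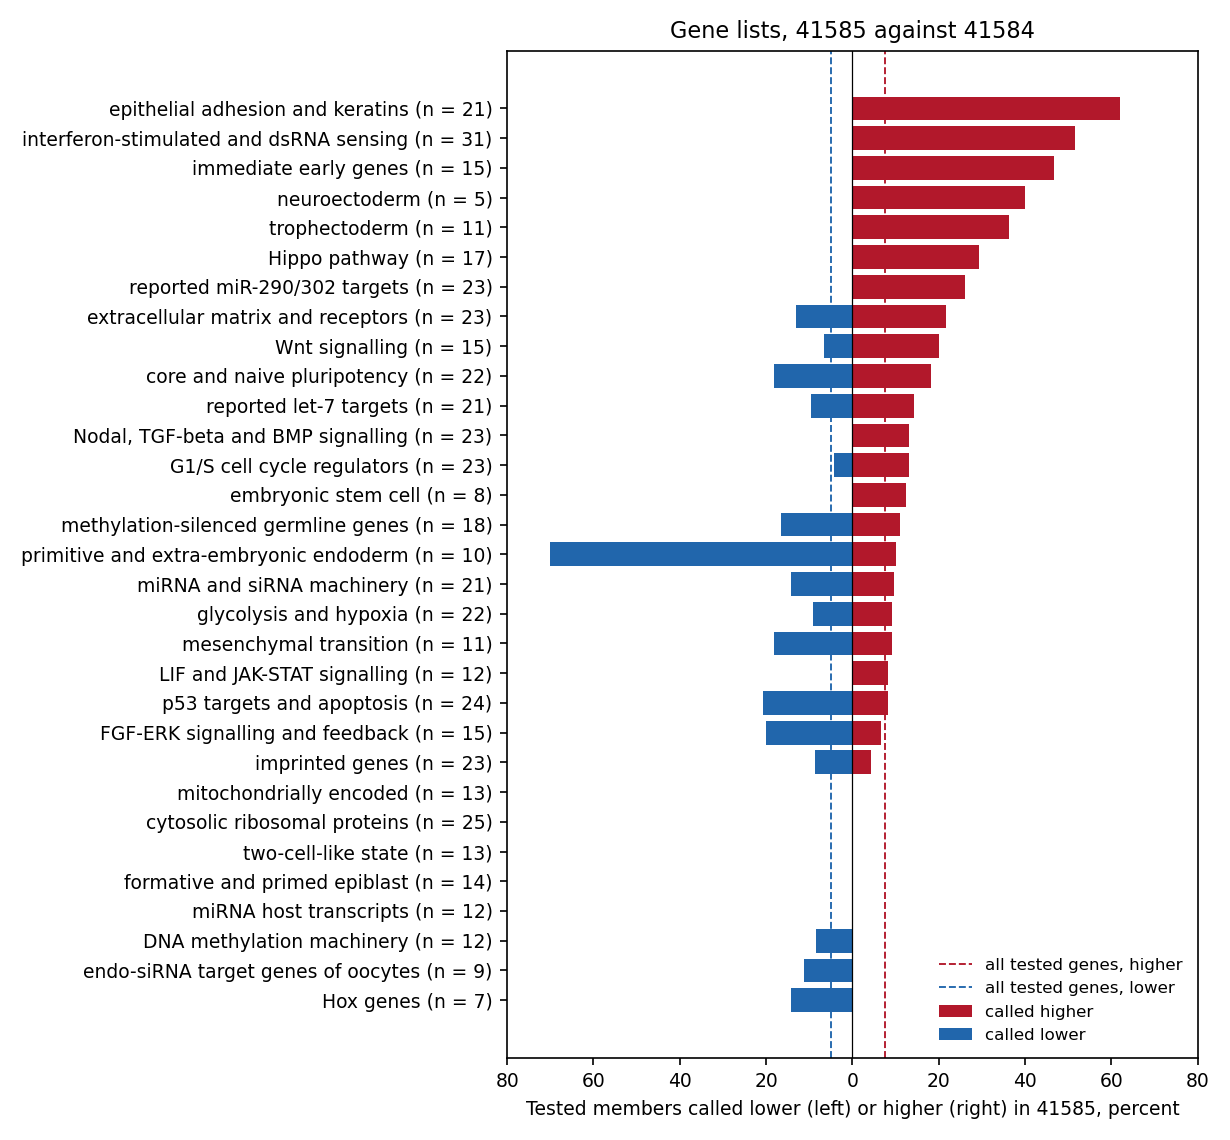
Percent of the tested members of each gene list with at least 5 tested members that were called higher (right) or lower (left) in 41585. Dashed lines mark the same shares over all tested genes, 7.65% and 5.07%; the interferon list reaches 16 of 31 members higher and the primitive and extra-embryonic endoderm list 7 of 10 lower.

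The genes of the miRNA and siRNA pathways came first in the comparison by function. Of 21 tested members, 2 were called higher and 3 lower, with a median log2 fold of −0.11 against −0.01 over all tested genes. Each list below is to be read against the 7.65% of all tested genes called higher and the 5.07% called lower. Lin28a, which blocks let-7 maturation, had 162 and 326 CPM in 41584 and 18 and 22.4 CPM in 41585. This drop of −3.6 ± 0.34 (adjusted p = 0.000306) was the one change of the list that was called in every leave-one-out fit. Its paralog Lin28b was higher, from 26.3 and 41 to 58.9 and 72.7 CPM (0.97 ± 0.27, adjusted p = 0.0364). Among the Argonautes, which carry the small RNAs, Ago1 was higher (79 and 129 against 212 and 300 CPM) and Ago3 lower (55.4 and 69 against 25.7 and 37.8 CPM). Tut4, a uridylyltransferase that works with Lin28a, was lower (161 and 169 against 68.8 and 85.9 CPM). The calls of Lin28b, Ago1, Ago3 and Tut4 were lost without at least 1 library. Drosha, which cuts primary miRNA transcripts upstream of Dicer, was at 254 and 279 CPM in 41584 and 318 and 257 CPM in 41585 (adjusted p = 0.768). None of 12 tested host transcripts of miRNAs was called.

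Among 23 tested genes reported as targets of the miR-290 and miR-302 family, 6 were called higher and none lower, with a median log2 fold of 0.76. The background is 7.65% of tested genes higher. The list still held 4 to 5 higher genes when any 1 library was left out. Lefty1, an inhibitor of Nodal signalling, had 3.45 and 4.82 CPM in 41584 and 45.3 and 34 CPM in 41585 (3.26 ± 0.47, adjusted p = 0.00258). Tfap4, a transcription factor of the AP-4 type, had 7.29 and 11.2 CPM against 39.5 and 50.3 CPM (2.28 ± 0.39, adjusted p = 0.00547). Irf2 had 0 and 0.155 CPM against 7.96 and 14.7 CPM, a ratio of 159 (95% counting interval 28.2 to 6313). Nr2f2, a nuclear receptor, had 0.128 and 0 CPM against 3.51 and 4.37 CPM. These 4 genes were called in every leave-one-out fit.

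Lats2, a kinase of the Hippo pathway, had 2.81 and 8.55 CPM in 41584 and 24 and 35.5 CPM in 41585 (adjusted p = 0.0174). Cdkn1a, the cyclin-dependent kinase inhibitor p21, had 68.9 and 25.8 CPM against 119 and 138 CPM (adjusted p = 0.0288). Lats2 lost its call without 41584 replicate 1 (0.0609) or 41585 replicate 2 (0.0922), and Cdkn1a without 41584 replicate 2 (0.0899) or either 41585 library (0.091 and 0.116). Lefty2, another Nodal inhibitor, was at 13.4 and 24.7 CPM against 39.8 and 52.4 CPM, which did not pass the test (adjusted p = 0.185).

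Of the 23 reported targets, 20 held AGCACTT in the annotated 3' UTR and 9 the 8-base form AGCACTTA. Only 5 of these 20 were called higher, and all 5 were among the 9 with the 8-base form. The other targets with a site, including others with the 8-base form such as Lefty2, were not called. Nr2f2 was called and held neither form. Over all tested genes with a 3' UTR of at least 50 bases, 435 held the 8-base form. Of these, 58 were called higher, or 13.3% against 8.04% of genes without it. Another 17, with Ago3 among them, were called lower, or 3.91% against 5.44%. Sites were searched on the sense strand of the UTR. The sites of the 5 called targets that hold one, and of 2 interferon genes, are given in 30 bases each (GRCm38). The site is in capitals, so that the 7- and 8-base forms can be compared. All of these genes were called higher, so their sequences do not show how a site relates to a call. Oasl2 and Oas1a are shown because they hold the 8-base form, while 12 of the 16 interferon genes called higher hold no site of either form.
Lefty1, chr1:180938202-180938231, plus strand: actgtatgcgaAGCACTTAcatgtatagat
Tfap4, chr16:4545080-4545109, minus strand: tttctcttttaAGCACTTAcatgggttggg
Irf2, chr8:46846653-46846682, plus strand: ccttatcttgaAGCACTTAcaataggcctt
Lats2, chr14:57691075-57691104, minus strand: agtatggaaagAGCACTTAttttgtggata
Lats2, chr14:57690976-57691005, minus strand: ttgtatctgatAGCACTTgtccacagctag
Cdkn1a, chr17:29100489-29100518, plus strand: gtgggtgtcaaAGCACTTAgtgggtctgac
Cdkn1a, chr17:29099817-29099846, plus strand: cagacctgaatAGCACTTtggaaaaatgag
Oasl2, chr5:114911511-114911540, plus strand: gcctttatctcAGCACTTAgagaatttctg
Oas1a, chr5:120896587-120896616, minus strand: tgcatttagtgAGCACTTActacatatgct

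The 7-base form stood in 16.4% and the 8-base form in 3.39% of the 12831 tested genes with a 3' UTR of at least 50 bases. A match is a description of the annotated UTR and not of binding.

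Over all those genes, 9.94% of the 2102 with AGCACTT and 7.89% of the 10729 without it were called higher in 41585. Genes with a long UTR were lower as a class: the median log2 fold was 0.22 in the tertile of shortest UTRs (up to 609 bases), 0.03 in the middle one and −0.18 in the tertile above 1667 bases. Within the tertiles, the shares called higher with and without the 7-base site were 11.2% and 8.47%, 14.5% and 8.87%, and 8.12% and 5.73%. For the 8-base form they were 26.1% of 23 genes and 8.46%, 27.3% of 99 genes and 9.16%, and 7.99% of 313 genes and 6.41%. The difference of median folds between genes with and without the 7-base site was −0.071 over all UTRs but 0.04, 0.07 and 0.11 within the tertiles. It was 0.094 once the trend on GC content and length was removed. Over the 4 pairs of 1 library from each line it ran from −0.169 to 0.033.

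The miR-17 site GCACTTT, in 13.9% of genes, gave 11.1% called higher with the site against 7.76% without, and shares bases with the site above. Within the tertiles its shares with and without were 11.5% and 8.47%, 14.9% and 8.94%, and 9.54% and 5.36%. Its 8-base form GCACTTTA gave 14.7% of 34 genes and 8.51%, 17.6% of 131 and 9.33%, and 10.4% of 385 and 6.15%. For the 8-base miR-92 form GTGCAATA they were 0% and 8.6%, 14.6% and 9.46%, and 9.55% and 6.36%. No 8-base form of the remaining families below had the higher share in every tertile. The let-7 site CTACCTC, in 9.87% of genes, gave 7.5% against 8.3% over all UTRs. Its shares with and without the site were 8.18% and 8.57% in the short tertile, 12.8% and 9.3% in the middle one, and 5.16% and 6.85% in the long one. The miR-26 site TACTTGA, in 11% of genes, gave 4.7% against 8.66%, and was the lower share in each tertile (6% and 8.62%, 6.8% and 9.83%, 3.78% and 7.31%). The sites of 5 other families, TGCTGCT (miR-15), TTTGCAC (miR-19), GTGCAAT (miR-92), TTGCACT (miR-130) and TTGCCAA (miR-182), stood in 7.03% to 23% of genes. They gave 7.5% to 8.2% called higher with the site and 8.22% to 8.44% without it, over all UTRs. In the middle tertile the share was higher with the site in all 5 families, at 9.59% to 11.8% against 9.06% to 9.58%. The shares with and without the site were 4.48% to 11.8% and 8.47% to 8.71% in the short tertile. In the long one they were 5.74% to 7.57% and 6.36% to 7.12%. These shares are descriptions of overlapping sets of genes and were not tested.

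**Figure D4:**
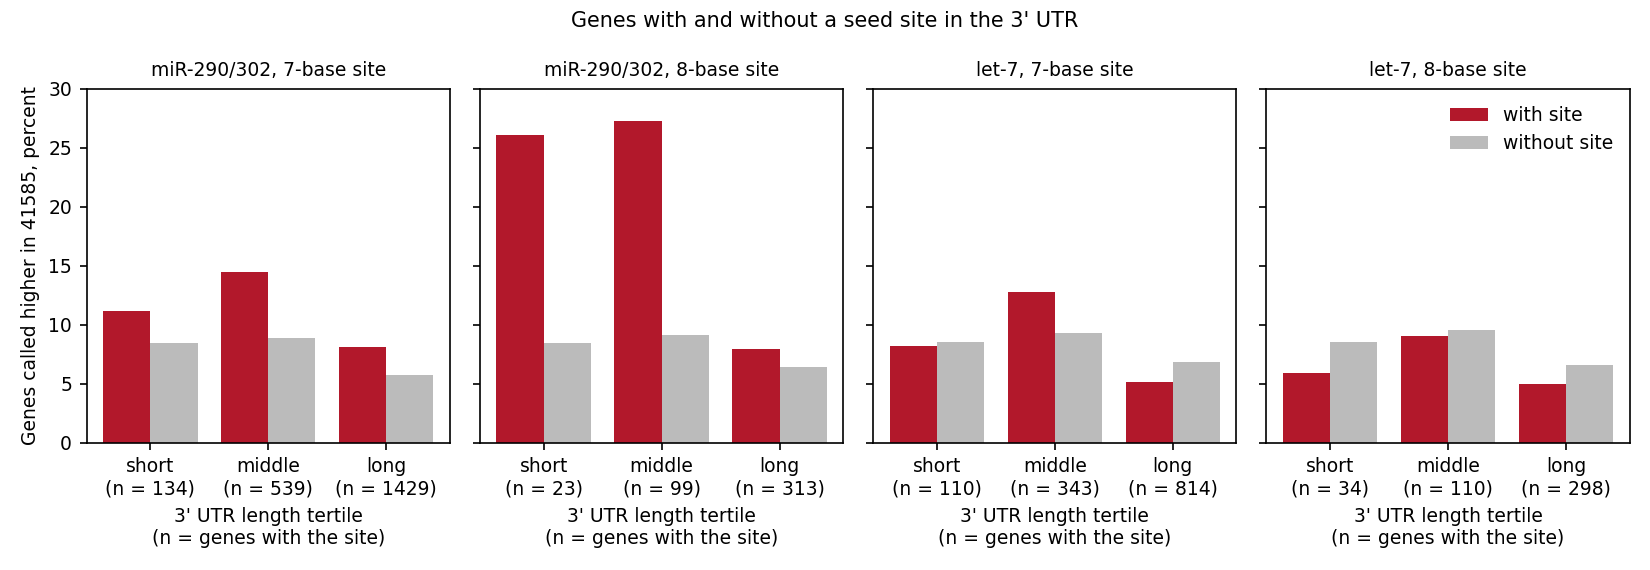
Percent of genes called higher in 41585 among genes with (red) and without (grey) a miR-290 and miR-302 or let-7 site, in tertiles of 3' UTR length. The 8-base miR-290 and miR-302 site shows 26.1% and 27.3% in the short and middle tertiles, on 23 and 99 genes, and 7.99% on 313 genes in the long one.

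Of 21 tested genes reported as let-7 targets, 3 were called higher and 2 lower (median 0.38). The shares over all tested genes were 7.65% higher and 5.07% lower. Hmga2, an architectural chromatin protein, had 14.2 and 14.9 CPM in 41584 and 68 and 102 CPM in 41585 (2.55 ± 0.33, adjusted p = 0.00137), and Lin28a, itself on this list, was lower as above. Both were called in every leave-one-out fit. Igf2bp2, an RNA-binding protein, was higher (adjusted p = 0.0182) and Nras, a small GTPase, lower (0.00682). Lin28b, the other higher member, is described above. Each of these 3 lost its call without 1 or more libraries.

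Genes of the interferon response and of double-stranded RNA sensing stood higher, with 16 of 31 tested members called higher and none lower, against 7.65% of all tested genes. The list median was 1.9, and 28 of the 31 lay above 0. It held 12 higher genes without 41584 replicate 1, 15 without 41584 replicate 2, and 9 and 11 without 41585 replicate 1 and 2. Among the transcription factors, Irf1 had 10.4 and 11.8 CPM in 41584 and 76.4 and 74.2 CPM in 41585 (2.76 ± 0.36, adjusted p = 0.00149). Irf9, a subunit of the factor that type I interferon activates, had 13.3 and 20.4 CPM against 50.2 and 55.3 CPM (1.65 ± 0.31, adjusted p = 0.00817). Among effectors, Oas1a, an oligoadenylate synthetase, had 4.35 and 7.46 CPM against 73.8 and 36.5 CPM (3.23 ± 0.46, adjusted p = 0.00264). Ifitm3, a membrane protein that restricts virus entry, had 42.4 and 58.3 CPM against 263 and 270 CPM (2.41 ± 0.4, adjusted p = 0.00544). With Oasl2, Gbp2, Psmb8 and Irf2, these make the 8 members called in every leave-one-out fit.

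Sensors of double-stranded RNA showed a mixed picture. Tlr3, an endosomal sensor, was higher, from 1.66 and 1.55 to 6.55 and 7.46 CPM (adjusted p = 0.0224). Mavs, the mitochondrial adaptor of the cytosolic sensors, was higher, from 18.4 and 21 to 49.3 and 49.1 CPM (0.00851). The sensor RIG-I (Ddx58) had 13.2 and 99.5 CPM in 41584 and 82.8 and 96.9 CPM in 41585, which overlapped (adjusted p = 0.529). It was called higher without 41584 replicate 2 (0.0386). The kinase PKR (Eif2ak2) had 41 and 56.3 CPM against 67.3 and 68.4 CPM (adjusted p = 0.204). Tlr3 and Mavs each lost the call in at least 1 leave-one-out fit, Mavs at 0.0548.

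Epithelial adhesion genes and keratins were called higher in 13 of 21 tested members and lower in none (median 1.56). The list held 9 higher members without either 41584 library or without 41585 replicate 2, and 2 without 41585 replicate 1. Krt19 and Jup were called in every leave-one-out fit. Krt19, a keratin of simple epithelia, had 3.2 and 1.55 CPM in 41584 and 45.7 and 32.9 CPM in 41585 (4.02 ± 0.46, adjusted p = 0.000612). Jup, which encodes plakoglobin of desmosomes and adherens junctions, had 21 and 22.5 CPM against 153 and 141 CPM (2.75 ± 0.54, adjusted p = 0.0112). Cdh1, the E-cadherin of stem cell colonies, had 374 and 418 CPM against 766 and 852 CPM, and Epcam 57.3 and 95.3 CPM against 240 and 234 CPM.

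Krt8 and Krt18, the paired keratins of simple epithelia, lie on chromosome 15, whose genes were higher in replicate 1 of both lines. Krt8 had 9.33 and 1.71 CPM in 41584 and 191 and 28.6 CPM in 41585, and Krt18 12.3 and 2.18 CPM against 78.9 and 16.1 CPM. In Krt18 the ranges of the lines did not overlap, but 41585 replicate 2 was close to 41584 replicate 1. Without 41585 replicate 1 the adjusted p was 0.0745 for Krt8 and 0.353 for Krt18. The part of chromosome 15 in these values was not tested.

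Trophectoderm markers, which include both keratins, were called higher in 4 of 11 tested members. The other 7 were not called, and 4 of the 11 lay below 0. The markers summed to 112 and 64.4 CPM in 41584 and 458 and 190 CPM in 41585. Krt8 and Krt18 made up a large part of the sum in 41585 replicate 1 and a smaller part in replicate 2. Those at 1 CPM or more numbered 9 and 8 of 13 in 41584 and 10 and 7 in 41585. Cdx2 and Gata3 had too few reads to be tested. Cdx2 had 0 and 0 reads in 41584 and 1 and 0 in 41585, and Gata3 1 and 1 against 4 and 6. Plet1, a surface protein of trophoblast progenitors, had 8.05 and 2.33 CPM against 76.9 and 55.6 CPM (3.65 ± 0.43, adjusted p = 0.000819) and was called in every leave-one-out fit. A change in the number of cells with these RNAs and a change of RNA per cell cannot be told apart in these libraries. Whether such cells are trophectoderm was not tested. From 0 to 2 of 13 trophectoderm markers were at 0 in each of the 4 libraries.

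Of 22 tested pluripotency genes, 4 were called higher and 4 lower, against 7.65% and 5.07% of all tested genes. The list median was −0.22. The Krüppel-like factors went in opposite directions. Klf4 had 253 and 208 CPM in 41584 and 50.4 and 61.5 CPM in 41585 (−2.04 ± 0.25, adjusted p = 0.00106), and Klf2 51.4 and 73.8 CPM against 178 and 214 CPM (1.65 ± 0.23, adjusted p = 0.00203). Both were called in every leave-one-out fit, and the libraries of the lines did not overlap. With the trend on GC content and length removed, Klf2 was no longer called (log2 0.65, adjusted p = 0.28). Klf5 was lower (100 and 102 against 49.6 and 60.8 CPM, adjusted p = 0.046). Tbx3 and Gbx2, transcription factors of the naive state, were also lower. Fgf4, the growth factor that stem cells secrete, was higher, from 208 and 175 to 454 and 454 CPM, with Prdm14 and Dppa3. All of the last 6 lost the call in at least 1 leave-one-out fit.

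Pou5f1, which encodes Oct4, had 352 and 386 CPM in 41584 and 946 and 854 CPM in 41585 without passing the test (1.29 ± 0.43, adjusted p = 0.0684). WT libraries had 140 and 322 CPM and KO libraries 509 and 465 CPM. Sox2, Zfp42 and Esrrb were not called. None of 14 formative and primed epiblast genes was called (median 0.79): Otx2 ranged from 11 to 38.1 CPM in 41584 and from 32.9 to 140 CPM in 41585, and Dnmt3b from 72.2 to 226 CPM and from 241 to 288 CPM. In leave-one-out fits members were called in both directions. Dnmt3b, Foxd3 and Zic2 were called higher without 41584 replicate 2. Lower calls came without 41584 replicate 1 and without 41585 replicate 2, the latter that of Sox4. These genes were named after their values were seen.

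Primitive and extra-embryonic endoderm markers were lower in 7 of 10 tested members and higher in 1, with a median of −2.47. Counts of lower markers were 4 and 6 without 41584 replicate 1 and 2, and 1 without either 41585 library. Gata6, a transcription factor that sets endoderm identity, had 5.11 and 4.35 CPM in 41584 and 0.351 and 0 CPM in 41585, a ratio of 26 (95% counting interval 8.51 to 129). Pdgfra, an early endoderm receptor, had 13.9 and 4.97 CPM against 0.936 and 1.16 CPM. Cubn, an endocytic receptor of visceral endoderm, had 38.9 and 8.08 CPM against 0.936 and 1.93 CPM, and its partner Dab2 33.5 and 4.2 CPM against 0.351 and 0.515 CPM. In Pdgfra, Cubn and Dab2 the level in 41584 replicate 1 exceeded that in replicate 2, and in all 4 genes the lines did not overlap. Lama1, a laminin chain of basement membrane, fell from 119 and 115 to 29.4 and 36.1 CPM (adjusted p = 0.0191). Sparc, an abundant matrix protein, rose from 193 and 152 to 375 and 383 CPM (1.13 ± 0.22, adjusted p = 0.0101). Sox7 and Hnf4a, endoderm transcription factors, were the other lower members. None of these 8 calls held in every leave-one-out fit. The markers summed to 579 and 430 CPM in 41584 and to 505 and 497 CPM in 41585, with 1, 2, 3 and 5 of 16 at 0.

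Among extracellular matrix genes and receptors, 5 of 23 were higher and 3 lower, against 7.65% and 5.07% of all tested genes. Itgb5, an integrin beta chain, rose from 16 and 11.8 to 58.9 and 59.7 CPM (2.09 ± 0.35, adjusted p = 0.00493) and, with Matn3 above, was called in every leave-one-out fit. Col18a1 and Nid1, basement membrane proteins, the integrin chain Itgav and the syndecan Sdc1 were higher, and Lama1 and the proteoglycan Acan lower. Of 11 mesenchymal transition genes, Zeb1, a repressor of Cdh1, was lower (32.2 and 23.8 against 5.85 and 7.08 CPM, −2.11 ± 0.4, adjusted p = 0.00879), as was the protease gene Mmp2, while Sparc was higher. Without 41585 replicate 1, none of these 3 was called.

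The Nodal, TGF-beta and BMP signalling list had 3 of 23 members higher and none lower, against 7.65% and 5.07% of all tested genes. They were Lefty1, described above, and Id2 and Id3, BMP-responsive inhibitors of helix-loop-helix factors. Id2 had 4.6 and 13.1 CPM against 31.5 and 35.1 CPM, and Id3 2.68 and 4.82 CPM against 18.7 and 20.5 CPM. Nodal itself had 15 and 16.6 CPM against 34.5 and 28.2 CPM (adjusted p = 0.0979). In the Hippo list 5 of 17 were higher and none lower, namely Lats2, the tumour suppressor Nf2, the factor Tead4 and the YAP-responsive genes Ccn1 and Ccn2. Ccn1 rose from 8.69 and 6.37 to 30.9 and 30.9 CPM (2.03 ± 0.34, adjusted p = 0.00479) and was called in every leave-one-out fit. The list held 3, 4, 3 and 1 higher members without 41584 replicate 1, 41584 replicate 2, 41585 replicate 1 and 41585 replicate 2.

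Immediate early genes, which respond fast to growth signals and stress, were higher in 7 of 15 tested members and lower in none (median 1.35). Over all tested genes, 7.65% were higher and 5.07% lower. Dusp1, a phosphatase of MAP kinases, had 19.4 and 10.3 CPM in 41584 and 75.3 and 58.3 CPM in 41585 (2.16 ± 0.3, adjusted p = 0.00187). It was the one member called in every leave-one-out fit, and the list held 1 to 5 higher members in those fits. Jun had 4.99 and 1.87 CPM against 23.3 and 13.8 CPM. Among 15 genes of FGF and ERK signalling and its feedback, Spry2, Spry4 and Dusp4 were called lower, Fgf4 was called higher and 11 were not called. No call of this list held in every leave-one-out fit. Spry2 had 73.6 and 88.6 CPM against 26.4 and 42.5 CPM (−1.24 ± 0.25, adjusted p = 0.0112). In the Wnt list 3 of 15 were higher (Porcn, Tcf7l1 and Tcf7l2) and Axin2 was lower, and no member of the list was called without 41584 replicate 1, 41585 replicate 1 or 41585 replicate 2. Il6st, the shared LIF receptor chain gp130, was the one call among 12 genes of LIF signalling (adjusted p = 0.0295), and was lost without 41584 replicate 1 (0.0973) or 41585 replicate 1 (0.0548) or 2 (0.187).

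Of 23 G1/S regulators, 3 inhibitors were higher, Cdkn1a, Cdkn2a and Cdkn2b, and Rb1, the retinoblastoma gene, was lower. Over all tested genes, 7.65% were higher and 5.07% lower. Rb1 had 81.7 and 87.4 CPM in 41584 and 25.4 and 32.5 CPM in 41585 (−1.54 ± 0.34, adjusted p = 0.0158). Cdkn2a had 0.256 and 0.311 CPM against 5.73 and 2.44 CPM. Among 24 p53 targets and apoptosis genes, 5 were lower and 2 higher. The lower ones were Mdm2, Trp53inp1, Zmat3, Eda2r and Pmaip1, all p53 targets, and the higher ones Cdkn1a, also a p53 target, and Casp8. Mdm2, which degrades p53, had 243 and 320 CPM against 110 and 111 CPM (−1.35 ± 0.27, adjusted p = 0.0114). Trp53 had 148 and 221 CPM against 326 and 363 CPM without passing the test (adjusted p = 0.102). No call of these 2 lists held in every leave-one-out fit, and without 41585 replicate 1 none was made.

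Of 18 germline genes that DNA methylation silences in somatic cells, 3 were lower and 2 higher (median −1.11, with 14 below 0). The shares over all tested genes were 5.07% lower and 7.65% higher. Sycp3, a protein of the synaptonemal complex, fell from 58.3 and 89.8 to 14.9 and 10 CPM (−2.57 ± 0.38, adjusted p = 0.00306) and was called in every leave-one-out fit. Dazl, a germ cell RNA-binding protein, had 154 and 82.1 CPM against 29.8 and 30 CPM. Among 12 genes of the methylation machinery, Tet1, an oxidase of methylcytosine, was called lower at 668 and 1174 against 351 and 432 CPM (adjusted p = 0.0438), which failed without 41584 replicate 2 (0.192) or either 41585 library (0.223 and 0.122).

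Few calls fell in the remaining lists, to be set against 7.65% of all tested genes called higher and 5.07% called lower. Plekha8, whose pseudogene gives endogenous siRNAs in oocytes, was the one call among 9 genes of that kind, going from 95.6 and 85.7 to 38.5 and 44.9 CPM (−1.12 ± 0.23, adjusted p = 0.0123). Its call was lost without 41585 replicate 1 (0.111) or 2 (0.0524). Imprinted genes had 1 of 23 higher (Impact) and 2 lower (Grb10 and Igf2r). The list had 4 higher without 41584 replicate 2, and none higher when any other of the 4 libraries was left out. Glycolysis and hypoxia genes had 2 of 22 higher (Eno1 and Tpi1) and 2 lower (Slc2a3 and Bnip3). Of these, the glucose transporter gene Slc2a3 fell from 1975 and 1072 to 437 and 452 CPM (−1.78 ± 0.31, adjusted p = 0.0059), a call lost without 41585 replicate 1 (0.0564). Hoxc13, on chromosome 15, was the one of 7 Hox genes called. Neuroectoderm markers had Nes and Pax6 higher among 5, and mesendoderm markers Evx1 among 3, all lost without at least 1 library. None of 13 genes of the two-cell-like state, 25 ribosomal protein genes or 13 mitochondrially encoded genes was called.

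KO against WT compares cells without and with Dicer and shares no library with 41585 against 41584. There 1929 genes were called (13.2%), 1066 higher (7.29%) and 863 lower (5.9%). Of the genes higher in 41585, 665 were also higher in the KO, which is 59.4% of the first set and 62.4% of the second. Of the genes lower in 41585, 403 were lower in the KO, 54.3% and 46.7% of the sets. None was called in opposite directions. The sign was the same in KO against WT for 1112 of the 1119 higher and 730 of the 742 lower genes. Over all tested genes, 50% lay above 0 and 50% below 0 in KO against WT. The median log2 fold of the 1119 genes was 1.91 in 41585 against 41584, the contrast that chose them, and 1.51 in KO against WT. For the 742 lower genes these medians were −1.35 and −1.14.

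**Figure D5:**
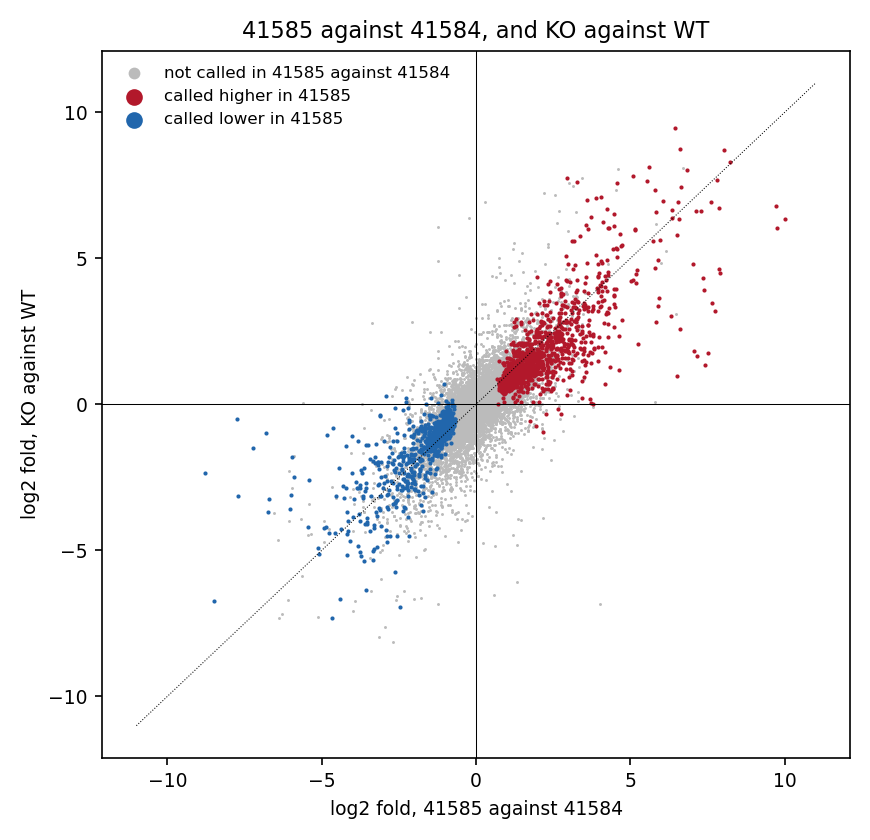
Log2 fold of each tested gene in 41585 against 41584 (x axis) and in KO against WT (y axis), with a dotted line at equal folds. Genes called higher (red) or lower (blue) on the x axis lie for the most part on the same side of 0 on the y axis, 1112 of 1119 and 730 of 742. Of all tested genes, 50% lie on each side of 0 on the y axis.

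Some of the genes named above followed this pattern, and others were not called in KO against WT. Lin28a had 121 and 211 CPM in WT and 18.5 and 24.2 CPM in KO, Klf4 375 and 250 CPM against 53.8 and 51.7 CPM, and Hmga2 20.9 and 11.4 CPM against 101 and 73.4 CPM. These levels lie near those of 41584 and 41585. Cdkn1a had a log2 fold of 0.08 in KO against WT (adjusted p = 0.905) and 1.44 in 41585 against 41584. Spink1 had −1.49 (adjusted p = 0.603) and Gap43 −2.36 (0.156) in KO against WT. A call in 1 contrast only does not show that the contrasts differ. The edgeR test of that difference, given next, called no gene.

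The difference between the 2 contrasts was tested as such, and edgeR called no gene, with 419 of 14629 at an unadjusted p under 0.05. How large a difference this test could find was not simulated. The absence of calls does not show that the contrasts are equal. DESeq2 called 2, Efhc2 and Fmr1nb, and edgeR called 69 when no filter on low counts was used, 24 with a larger and 45 with a smaller value in 41585 against 41584. Fmr1nb, a testis-expressed gene of the X chromosome, had 27.7 and 21 CPM in 41584, 10.5 and 21.2 CPM in 41585, 28.6 and 23.5 CPM in WT, and 2.68 and 0.616 CPM in KO. Efhc2, a gene for an EF-hand protein, had 216 and 40 CPM in WT, 2.32 and 1.39 CPM in KO, and 5.13 to 20.1 CPM in the complemented pair. Leaving out 41585 replicate 1 gave 1 call, the growth factor Igf2 (adjusted p = 0.0205), which had 23 CPM in that library and 1.29 CPM in the other. Leaving out KO replicate 1 gave 4, all genes of the Y chromosome, at 0 CPM in KO replicate 2 and at 16.6 to 337 CPM in the 41584 and 41585 libraries. Dicer1 fell by 2.5 on the log2 scale in KO against WT, and the difference of 2 ± 0.48 between the contrasts had an unadjusted p of 0.0013 and an adjusted p of 0.999. Several other genes with the smallest unadjusted p lie on chromosome 1, all with a negative difference. Of these, Timm17a, named after its values were seen, had 38.7 and 39.1 CPM in WT. It had 78.5 to 98.8 CPM in the KO, 41584 and 41585 libraries.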

How the data were processed

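mRNA of 12 libraries, 2 per group, was sequenced from TruSeq reverse-stranded libraries, per the labels' protocols. Reads were aligned with STAR 2.4.2a to mm10 (GRCm38), per the submitters' processing notes. No label names the counting program or its annotation. The authors deposited raw read counts of 47643 Ensembl genes. GENCODE M21 (GRCm38) named 47224 of them and gave the 3' UTRs.

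Groups were compared with edgeR 4.0.16 (quasi-likelihood, robust, TMM, filterByExpr, all 12 libraries, 1 mean per group), with calls at p under 0.05 after Benjamini-Hochberg adjustment over 14629 genes. The common biological coefficient of variation was 0.278, with 6 residual degrees of freedom. Folds are log2 ± standard error, and n = 2 per line throughout. For a line with no read, the fold is a bound against 3 counts over the group. For 1 to 3 reads it is a ratio with a 95% exact interval. Both cover counting error only. On simulated counts with the observed spread, edgeR recovered 14% of 2-fold, 76% of 4-fold, 94% of 8-fold and 94% of 16-fold changes, with 7 calls among the other genes of 14629. The changed genes were drawn from those with a mean above 2 CPM over the series. Recovery was not measured for genes below that level.

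Alternatives were DESeq2 1.42.0, RLE and upper-quartile scaling, no filter, fewer libraries, a replicate block, removal of GC and length trends, and leaving out each library. A fit without 1 library assumes that the lone library of its line varies like the other groups. Named genes are Dicer1 and the small RNA machinery, the 12 largest and 12 smallest folds among called genes of at least 5 CPM in the higher line whose libraries do not overlap, up to 4 members per list by adjusted p, and any needed to state what a list did. A few genes that this rule names are not reported here. The comparison and the 33 lists were chosen with earlier results of these data known. Genes of the closing section were chosen after their values were seen.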

Additional observations from a re-analysis of the deposited data

How the results depend on the processing

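For 41585 against 41584, the count of 1861 calls lay within 1.5 times of itself under DESeq2 (2648), RLE (1903) and upper-quartile scaling (1981), and removal of GC and length trends (1941). Under that removal 1411 of the 1861 calls were kept and 2 changed sign, and of the genes named here Klf2, Klf5, Ago1, Cdkn1a, Cdkn2b, Epcam, Col18a1, Sdc1, Id3, Nf2, Tead4, Tcf7l1, Porcn, Dazl, Grb10, Eno1, Tpi1 and Bnip3 were no longer called. Upper-quartile scaling lost the calls of Eno1, Tpi1 and Porcn. The count was 3073 with no filter and 472 with only the 4 libraries, and ran from 359 to 1826 when 1 library was left out. The median of all folds was 0.122 without 41584 replicate 1. For the difference from KO against WT, 0 calls became 2 with DESeq2 and 69 with no filter, and 0 to 4 when 1 library was left out. The median difference for the miR-290 and miR-302 site was −0.071, reversed to 0.094 with GC and length trends removed, and ran from −0.119 to −0.005 when 1 library was left out. The replicate block gave 2170 calls for 41585 against 41584, 0 for the difference and −0.069 for the site. Equal numbers deviated together in these lines (correlation 0.325), but the labels do not say what a number shares, so no pairing was assumed. Of 140 genes that the naming rule covers, 58 lost the call without 41585 replicate 1, 46 without 41585 replicate 2, 29 without 41584 replicate 1, 24 without 41584 replicate 2, 55 with only the 4 libraries and 15 with GC and length trends removed. Recovery of 14% in simulated 2-fold changes limits what 2 libraries per line can show.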

Other observations

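The following genes reach at least 25 CPM in the higher line and were called in every leave-one-out fit. They were picked by hand from 165 such genes after their values were seen, and support no statement about a group. Tapbp, which loads peptides onto MHC class I, had 10.7 and 12.1 CPM in 41584 and 101 and 67.9 CPM in 41585 (2.88 ± 0.27, edgeR adjusted p = 0.000216). Psme2, a proteasome activator, had 17.8 and 19.9 CPM against 106 and 93 CPM, and Erap1, a peptide-trimming aminopeptidase, 1.92 and 3.11 CPM against 30.2 and 47 CPM. Mov10, an RNA helicase found with Argonaute proteins, had 48.6 and 52.5 CPM against 334 and 343 CPM (2.74 ± 0.4, adjusted p = 0.00306). The metallothioneins Mt1 and Mt2 rose by 3.08 ± 0.42 and 3.3 ± 0.32, and the annexins Anxa1 and Anxa2, which bind membranes and calcium, by 4.7 ± 0.51 and 2.86 ± 0.4 on the log2 scale. In each of these genes both 41585 libraries lay above both 41584 libraries.

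Among the decreases, Kit, the receptor of stem cell factor, had 184 and 219 CPM in 41584 and 46.6 and 31.3 CPM in 41585 (−2.37 ± 0.23, adjusted p = 0.000306). Pros1, the anticoagulant protein S, had 88.7 and 70.1 CPM against 7.72 and 11.1 CPM. Smarca1, a chromatin remodeller of the X chromosome, had 24 and 46 CPM against 4.21 and 2.96 CPM, and Tro, also of the X chromosome, 62.9 and 56.3 CPM against 4.21 and 6.05 CPM.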
